A study of Mus musculus with 28 samples.

Results

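The miR-181 family was taken as the 5p strands of its 4 miRNAs, miR-181a-5p, miR-181b-5p, miR-181c-5p and miR-181d-5p, chosen by name (mmu-mir-181a-5p, mmu-mir-181b-5p, mmu-mir-181c-5p and mmu-mir-181d-5p) among 607 miRNAs listed over 4 deposited tables. Each table holds the libraries of 1 genotype and 1 sex, so that 28 libraries fall into 8 groups of genotype, sex and exposure. The small RNA came from alveolar macrophages (AM), the resident phagocytes of the air spaces, which were washed out of the lungs by bronchoalveolar lavage. The co-ex mice carry human SP-A1 and SP-A2 transgenes (variants 6A2/1A0) on a C57BL/6J background that lacks mouse SP-A, and the KO mice lack SP-A and carry no transgene, so mouse SP-A is missing from every group. Males and females of 12 weeks breathed filtered air (FA) or ozone (O3), which causes oxidative stress, for 3 h, and AM were collected 4 h later. Each co-ex group held 4 libraries and each KO group 3, and the labels give 4 animals per group. Genotype and any batch of library preparation cannot be told apart, since no source says whether co-ex and KO libraries were made together. The same holds for sex, since no source says whether the libraries of males and females were made together. Some FA libraries of KO mice, replicate 3 of males among them, have library codes outside the run of codes of the KO O3 libraries. What the codes stand for is not stated.

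A miRNA is cut from a hairpin precursor, loaded into an Argonaute protein, and pairs through its seed, bases 2 to 8, with sites in messenger RNAs that are then repressed. The miR-181 family is abundant in blood-forming cells, where miR-181a is best known for setting the sensitivity of T cell receptor signaling and for promoting early B cell development. In macrophages the family is known for acting on messages of the inflammatory response.

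The mature sequences are shown because the reads of the 4 members can be told apart only by a few bases beyond a shared seed, and their counts rest on that. They were taken from RefSeq (GRCm38.p6), run from 5′ to 3′, and have the seed in capitals.
miR-181a-5p: aACAUUCAacgcugucggugagu
miR-181b-5p: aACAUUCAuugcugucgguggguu
miR-181c-5p: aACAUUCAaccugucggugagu
miR-181d-5p: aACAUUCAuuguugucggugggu
Among 1679 mature miRNA names in the RefSeq table, these 4 were the ones that held the seed ACAUUCA. Counted from the 5′ end of miR-181a-5p, miR-181b-5p differs from it by A9U, C10U and A21G and by 1 further base at its 3′ end. miR-181c-5p is miR-181a-5p without base 11. miR-181d-5p differs from miR-181b-5p by C12U and lacks its last base. Reads with a sequencing error or trimmed ends may therefore have been counted for the near-identical member, which was not tested.

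The family has 6 hairpins at 3 places in the GRCm38.p6 genome. Mir181a-1 (chr1:137966455-137966541, plus strand) and Mir181b-1 (chr1:137966639-137966718, plus strand) lie 97 bases apart within an intron of the non-coding transcript Gm4258, and an exon of the non-coding RNA A430106G13Rik holds Mir181b-1 and the end of Mir181a-1 (GENCODE genes). Mir181a-2 (chr2:38852735-38852810, plus strand) and Mir181b-2 (chr2:38853830-38853918, plus strand) lie 1019 bases apart opposite an intron of Nr6a1, which encodes an orphan nuclear receptor and is read from the other strand. Mir181d (chr8:84178716-84178787, minus strand) and Mir181c (chr8:84178873-84178961, minus strand) lie 85 bases apart in an intron of Nanos3, a germ cell gene read from the same strand. The 5p strands of miR-181a and miR-181b come from both of the first pairs and do not tell them apart. The build the authors aligned to is not given in the sources used here.

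The libraries held 41542 to 2082034 miRNA reads (median 490152), and the top 10 miRNAs took 47.3 to 68.3% of each. The value of each miRNA in the tables is its read count divided by a size factor of the library, here called the normalized read count, which is comparable within a table. Between tables, levels were compared as reads per 1000000 miRNA reads (RPM). Of the macrophage and myeloid miRNAs, all 7 were listed in 3 tables and 6 in co-ex females, and their sum was 42578 to 223277 RPM. The 11 epithelial miRNAs were also listed in every table, with sums between 2244 and 59002 RPM. One FA library of KO males, replicate 3, stood apart: its epithelial sum was 29197 RPM against 2409 and 3082 in the other FA libraries of that table. In co-ex males, FA replicate 4 stood apart likewise, with 37265 RPM against 5892 to 12664 in the other FA libraries. O3 replicate 2 of co-ex males had 51551 RPM against 4616 to 14543 in the other O3 libraries.

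miR-181a-5p was the most abundant member in every library. It took 82.3 to 93.2% of the reads of the family, miR-181b-5p took 6.77 to 16.1%, and miR-181c-5p and miR-181d-5p together took 0 to 2.84%. The family as a whole amounted to 2347 to 14225 RPM, on 140 to 16375 reads. miR-181a-5p ranked between 19th and 61st among the miRNAs of its library and miR-181b-5p between 48th and 144th.

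**Figure D1:**
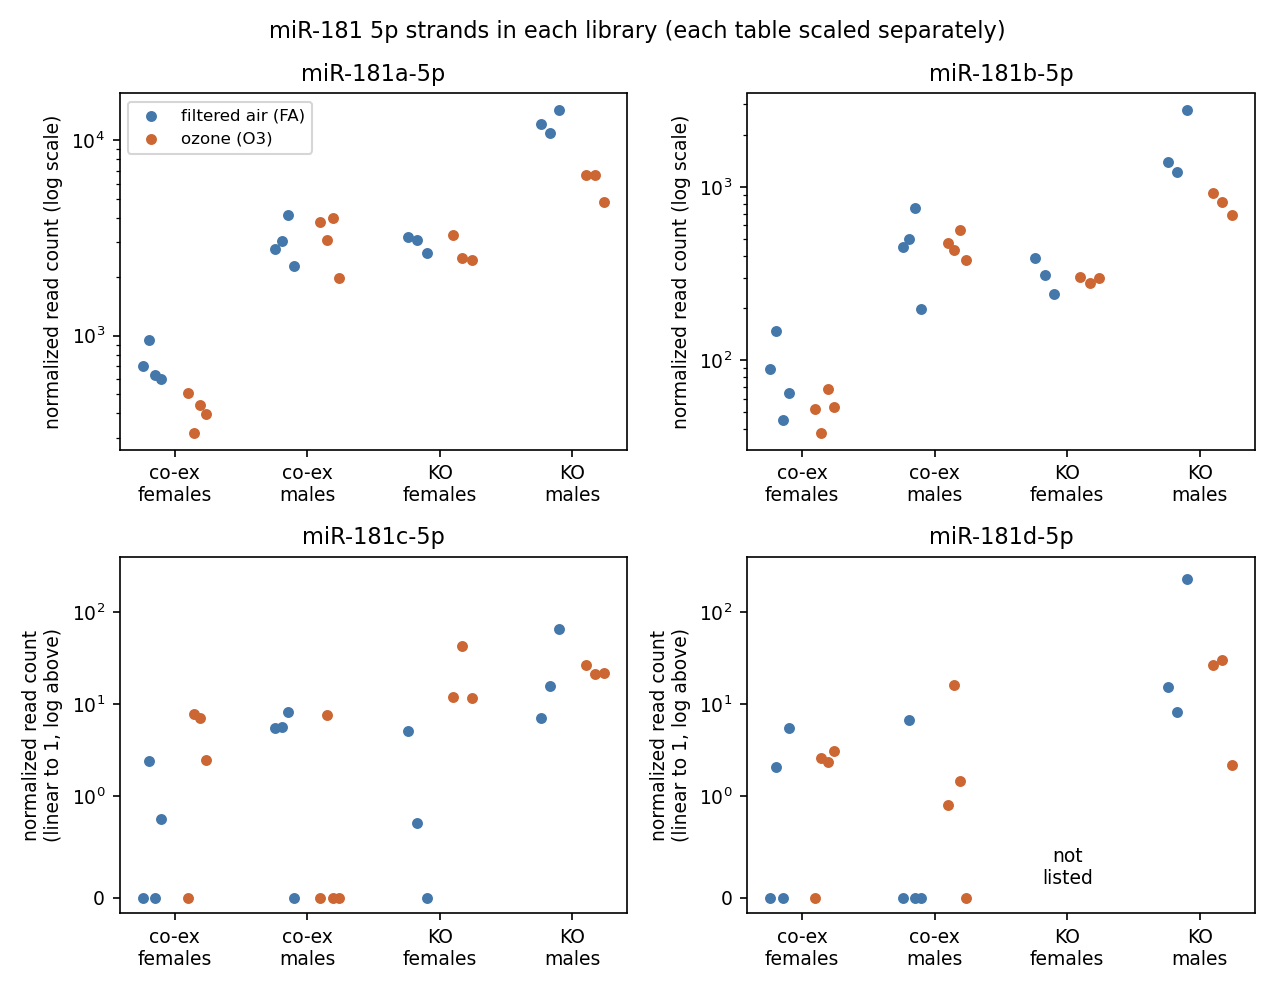
Normalized read count (vertical axis) of the 4 miR-181 5p strands in each library, by table (horizontal axis), with FA in blue and O3 in orange and 1 point per library. The axes of miR-181a-5p and miR-181b-5p are logarithmic, and those of miR-181c-5p and miR-181d-5p are linear up to 1 and logarithmic above it. In KO males the 3 O3 libraries lie below the 3 FA libraries for miR-181a-5p and miR-181b-5p, and miR-181d-5p is not listed in KO females.

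The first question was whether the family changed after O3 within each genotype and sex. In KO males, the normalized read count of miR-181a-5p was 12143, 10935 and 14349 after FA and 6648, 6680.15 and 4819 after O3. Every O3 library was below every FA library, with group means of 12476 ± 1731 and 6049 ± 1065 (SD, n = 3). The level after FA was 2.07-fold that after O3, a log2 fold change of -1.05 (SE 0.31), whose adjusted p was 0.332 in limma after Benjamini-Hochberg adjustment over 440 miRNAs, so the change did not pass the threshold of 0.1. Of the miRNAs in KO males, 0.909% passed, and 5% had all O3 libraries below all FA libraries.

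This outcome turned on 1 library and on the test used. Without FA replicate 3, the library with the epithelial miRNAs named above, the log2 fold change of miR-181a-5p was -0.95 (SE 0.23) and limma's adjusted p was 0.0132. Without that library 18% of 479 miRNAs passed the threshold, and 4.18% passed with a lower level after O3. FA replicate 3 had the highest miR-181a-5p of the table (14349 normalized reads). The FA libraries left without it had epithelial sums of 2409 and 3082 RPM, against 26277 to 35107 after O3. The part of that difference in the call was not tested. DESeq2 on the recovered reads of all 6 libraries also called miR-181a-5p lower, with a log2 fold change of -1.02 (SE 0.31) and an adjusted p of 0.0280, where 3.41% of the miRNAs were called and 0.682% were called lower. Over the other alternatives the change stayed between -0.81 and -1.14, below 0 in each, and did not pass.

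In co-ex females, the normalized read count of miR-181a-5p was 702, 951, 625 and 600.1 after FA and 511, 315, 439 and 399 after O3. Here too the O3 libraries lay wholly below the FA libraries. The FA level was 1.72-fold the O3 level, a log2 fold change of -0.79 (SE 0.36), with a limma adjusted p of 0.778 over 271 miRNAs. Of the miRNAs in co-ex females, 0.369% passed the threshold and 2.58% had O3 libraries wholly below FA libraries, and the median change of all miRNAs was -0.16.

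In co-ex males, the normalized read count was 2776, 3051, 4136 and 2279 after FA and 3826, 3101, 4002 and 1973 after O3. The groups covered much the same range, and the log2 fold change of 0.06 (SE 0.36) had a limma adjusted p of 0.944. By limma no miRNA passed in this table (0%), nor by edgeR or DESeq2, and 11 of 312 had an unadjusted p under 0.05. In KO females, the values were 3198, 3074 and 2658 after FA and 3279, 2511 and 2441 after O3, with overlapping groups and a log2 fold change of -0.13 (SE 0.23, limma adjusted p = 0.793), although 13.2% of the miRNAs in that table passed the threshold. The direction in co-ex males turned to -0.04 and that in KO females to 0.06 when libraries were scaled to their totals.

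The change of miR-181b-5p had the sign of that of miR-181a-5p in each table, and it too did not pass in any. In KO males it was at 1398, 1212 and 2791 normalized reads after FA and at 921, 822 and 688 after O3. All O3 libraries were again below all FA libraries, with the highest FA value in replicate 3. The log2 fold change was -1.06 (SE 0.44, limma adjusted p = 0.637), and it was -0.69 (SE 0.26, adjusted p = 0.101) without FA replicate 3. In co-ex females it was at 89.4, 147, 45.4 and 64.4 after FA and at 52.3, 37.8, 68.6 and 53.8 after O3. These groups overlapped, and the log2 fold change was -0.59 (SE 0.55, adjusted p = 0.891). In co-ex males the values ran from 197 to 755 after FA and from 379 to 563 after O3 (log2 fold change 0.10, SE 0.46). In KO females they ran from 242 to 388 after FA and from 280 to 302 after O3 (log2 fold change -0.07, SE 0.36). Both signs are within 1 standard error of 0.

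miR-181c-5p was near the detection limit in most libraries. Where none was counted, up to 3 reads remain possible by counting error alone, which in the libraries without a read of miR-181c-5p is 2.10 to 12.1 normalized reads. In KO females it was counted in 9, 1 and 0 reads after FA and in 14, 10 and 15 reads after O3, although the FA libraries were deeper (744541 to 1002869 reads against 111080 to 634775). As normalized reads these were 5.08, 0.732 and 0 after FA and 11.9, 43.1 and 11.6 after O3, so the groups did not overlap, as was so for 31.3% of the miRNAs in that table. The fitted log2 fold change was 3.14 (SE 1.22), which ranged from 2.54 (without O3 replicate 2) to 3.87 (without FA replicate 1) when 1 library was left out and was 4.59 with a pseudocount of 0.1. The limma adjusted p was 0.150 where 13.2% of all miRNAs passed. In KO males miR-181c-5p was at 7.11, 15.6 and 65.7 after FA and at 26.5, 21.3 and 21.6 after O3 (log2 fold change 0.21, SE 0.86). Co-ex males had 5.48, 5.60, 8.17 and 0 after FA, and after O3 had 7.70 in 1 library and 0 in 3 (log2 fold change -1.37, SE 1.27, adjusted p = 0.944). In co-ex females, with 0 to 7.74 normalized reads, it was too scarce to test.

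miR-181d-5p was not listed in KO females. In both co-ex tables its values were too low to test, between 0 and 16.2 normalized reads. In KO males it was at 15.2, 8.18 and 228 after FA and at 26.5, 30.1 and 2.16 after O3. The value of 228, from 153 reads, was that of FA replicate 3, and the log2 fold change of -1.22 (SE 1.45, limma adjusted p = 0.952) was 0.19 without that library. Of the 4 members, then, miR-181a-5p and miR-181b-5p were tested in 4 tables, miR-181c-5p in 3 and miR-181d-5p in 1, and no member passed limma's threshold within a table.

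**Figure D2:**
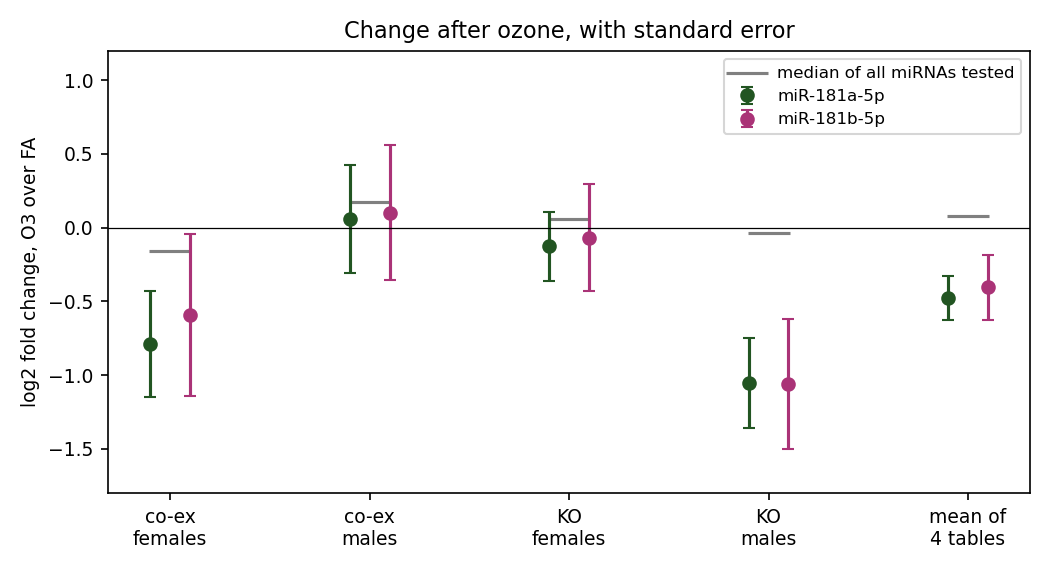
Log2 fold change of O3 over FA (vertical axis) of miR-181a-5p and miR-181b-5p in each table and as the mean of the 4 tables (horizontal axis), with points for the fitted change, bars for 1 standard error, and a grey line for the median of all miRNAs tested. Both miRNAs lie near -1 in KO males, and the mean change of miR-181a-5p is -0.48.

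The next question was whether the change held over genotypes and sexes together. The mean of the 4 log2 fold changes, each table counting the same and each O3 library being set only against FA libraries of its own table, was -0.48 (SE 0.15) for miR-181a-5p, a level after FA 1.39-fold that after O3. Its limma adjusted p was 0.0331 over 230 miRNAs, so miR-181a-5p was lower after O3 on average. In this comparison 20% of the miRNAs passed and 5.22% passed with a lower level, and the median change of all was 0.08. The call held in each of 34 alternatives, with changes from -0.55 to -0.39 and adjusted p-values from 0.00549 to 0.0715. The mean rests mainly on KO males and co-ex females, whose changes were -1.05 and -0.79. For miR-181b-5p the mean change was -0.40 (SE 0.22, limma adjusted p = 0.250), and of the alternatives DESeq2 alone called it (log2 fold change -0.56, adjusted p = 0.0410). miR-181c-5p and miR-181d-5p did not pass the filter on low values in all tables and have no mean.

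**Figure D3:**
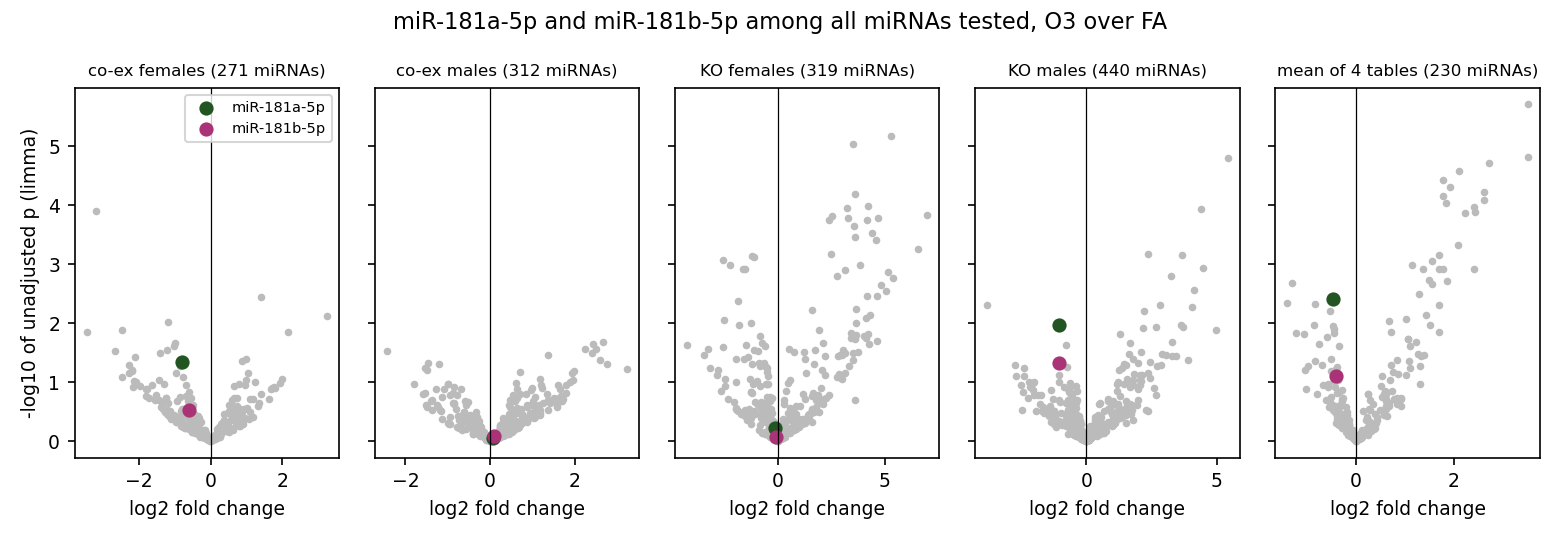
Each miRNA tested as a grey point, by its log2 fold change of O3 over FA (horizontal axis) and by -log10 of limma's unadjusted p (vertical axis), in each table and for the mean of the 4 tables, with miR-181a-5p in green and miR-181b-5p in purple. In KO males and in the mean, both miRNAs lie on the side of negative fold changes, while the miRNAs that passed were 4 higher and 0 lower in KO males, and 34 higher and 12 lower in the mean.

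The changes were then compared between tables. Between the sexes of KO mice, the change of miR-181a-5p in males minus that in females was -0.93 (SE 0.35, unadjusted p = 0.0217), and the limma adjusted p was 0.758. Between KO and co-ex males, it was -1.11 (SE 0.48, unadjusted p = 0.0359, limma adjusted p = 0.949). In co-ex mice the change in males minus that in females was 0.84 (SE 0.48, limma adjusted p = 0.968). In each of these 3 comparisons 0% of the miRNAs passed the threshold by limma, while 17, 6 and 8 miRNAs had an unadjusted p under 0.05 and DESeq2 called 2, 0 and 1. In females, the change in KO minus that in co-ex was 0.66 (SE 0.42, limma adjusted p = 0.461), where 8.71% of the miRNAs passed and the median over all was 0.48. miR-181b-5p gave differences of -0.99, -1.16, 0.69 and 0.52 in the same order, none of which passed. So the larger changes in KO males and co-ex females were not shown to differ from those in the other tables.

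The level of miR-181a-5p was ordered over the 8 groups as follows. It was at 9243 ± 2019 RPM in co-ex males after FA and at 9045 ± 2196 after O3 (SD, n = 4), and at 8861 ± 825 in KO males after FA (n = 3). These 3 groups overlapped. Next came KO females after O3 with 5581 ± 818, all below KO males after FA. They overlapped with co-ex males after O3, since their replicate 1 (6513 RPM) lay above replicate 4 of those males (6197 RPM). Then came KO females after FA with 5308 ± 298 and KO males after O3 with 5131 ± 1036 (n = 3), which overlapped with each other, the last lying wholly below KO males after FA. Co-ex females after FA had 4566 ± 768 and overlapped with the KO females, and co-ex females after O3 had the lowest level, 2639 ± 478 (n = 4), below every other library of the series. miR-181b-5p ranged from 1399 ± 612 in co-ex males after FA to 340 ± 93.2 in co-ex females after O3. Unlike for miR-181a-5p, that lowest group (244 to 467 RPM) overlapped with co-ex females after FA (278 to 867 RPM).

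**Figure D4:**
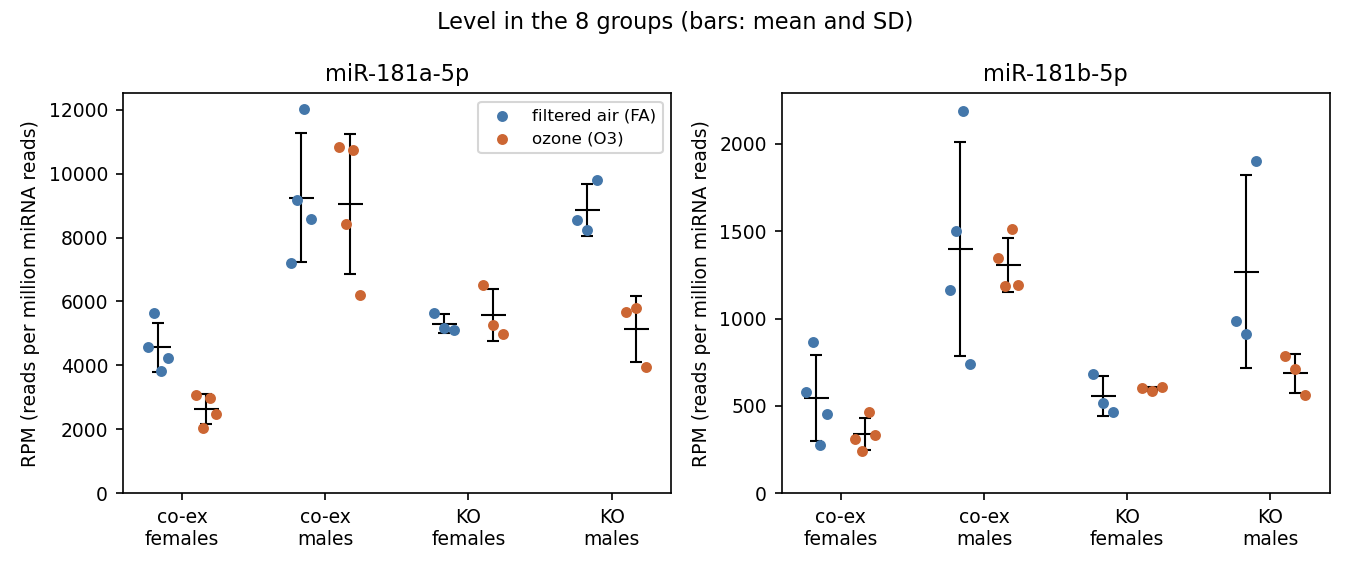
Level of miR-181a-5p and miR-181b-5p in RPM (vertical axis) in the 8 groups (horizontal axis), with 1 point per library, FA in blue, O3 in orange, and bars for the mean and 1 SD. Co-ex females after O3 have the lowest mean for both, 2639 and 340 RPM.

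After O3, co-ex males had more miR-181a-5p and miR-181b-5p than co-ex females. miR-181a-5p was at 6197 to 10819 RPM in males and at 2036 to 3057 in females, and miR-181b-5p at 1184 to 1510 and 244 to 467, so neither overlapped between the sexes. In edgeR's quasi-likelihood test the log2 differences were 1.98 (SE 0.41) and 2.15 (SE 0.44), both with an adjusted p of 0.0315, where 7.79% of 244 miRNAs passed and 16.8% did not overlap. Both calls were lost in 5 of 8 fits that left out 1 library (females 1, 2 or 4, or males 1 or 3), with adjusted p-values up to 0.194 and log2 differences no lower than 1.77 and 1.89. The summed lymphocyte miRNAs, miR-150 and miR-342, also did not overlap between these groups, with 8548 to 25211 RPM in males and 3406 to 6663 in females, and the epithelial sums were 4616 to 51551 and 39623 to 59002. The part of these markers in the difference was not tested. After FA the same comparison of the sexes gave 1.01 (SE 0.37, edgeR adjusted p = 0.120) and 1.39 (SE 0.54, edgeR adjusted p = 0.130), where 13.8% passed. There miR-181a-5p was at 7211 to 12010 RPM in males and 3828 to 5624 in females, and miR-181b-5p at 743 to 2191 and 278 to 867. Each FA difference passed in 2 of 8 fits that left out 1 library and in 1 of 5 other settings.

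In KO mice the sexes had a log2 difference in miR-181a-5p of 0.86 (SE 0.33) after FA and of -0.01 (SE 0.27) after O3. edgeR's adjusted p-values were 0.507 and 0.996, no miRNA passed in either comparison (0%), 23 and 28 had an unadjusted p under 0.05, and DESeq2 called 13 and 5. Between genotypes, KO females had more miR-181a-5p than co-ex females after O3, with a log2 difference of 1.22 (SE 0.37, edgeR adjusted p = 0.0893), where 10% of the miRNAs passed. That call was lost with total-count scaling (adjusted p = 0.104) and when any 1 of 5 libraries was left out (adjusted p up to 0.256; co-ex females 2, 3 or 4, or KO females 1 or 3). After FA the difference was 0.57 (SE 0.38, edgeR adjusted p = 0.366), where 29.1% passed. In males the KO level of miR-181a-5p relative to co-ex was 0.59 after FA (edgeR adjusted p = 0.461, 2.45% passed), which turned to -0.06 with total-count scaling, and -0.78 after O3 (edgeR adjusted p = 0.204, 17% passed). In a bulk sample of lavage cells, fewer cells that make a miRNA and less of it per cell cannot be told apart.

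Over all 28 libraries, the ratio of the abundant members varied less than their levels. Within a group this did not always hold. In KO males after FA the ratio ran from 5.14 to 9.02, while miR-181a-5p ran from 8233 to 9796 RPM. In co-ex males after O3 the ratio ran from 5.20 to 8.03 and miR-181a-5p from 6197 to 10819.5 RPM. There were 5.14 to 13.8 reads of miR-181a-5p for each read of miR-181b-5p (median 8.08 over 28 libraries). On the log2 scale the mean ratio in KO males was 2.88 ± 0.45 after FA and 2.89 ± 0.11 after O3 (SD, n = 3), while the levels of both members were lower after O3. In co-ex females it was 3.17 ± 0.46 and 2.98 ± 0.26 (n = 4), and the other tables differed between exposures by -0.05 and -0.06. Each of these differences was smaller than the SD within the groups. The ratio is one of reads, in which differences in adapter ligation between sequences were not corrected.

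**Figure D5:**
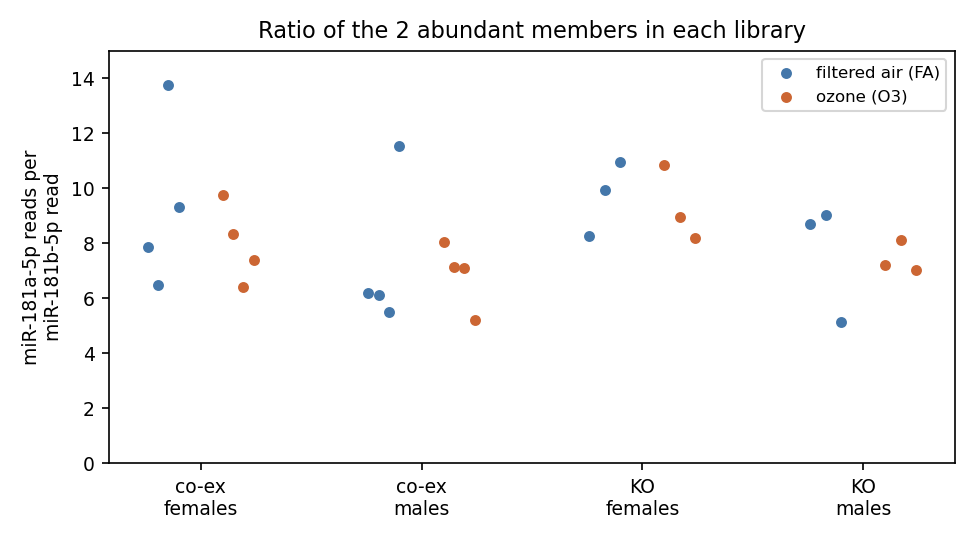
Reads of miR-181a-5p per read of miR-181b-5p (vertical axis, from 0) in each library, by table (horizontal axis), with FA in blue and O3 in orange. The ratio runs from 5.14 to 13.8, and FA and O3 libraries overlap in every table.

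The partner strands, cut from the 3′ arms of the same hairpins, tell the places of origin apart. The 3p strands of the miR-181a hairpins are shown because 2 bases, in capitals, separate them (U5C and U16C, counted from the 5′ end of miR-181a-1-3p).
miR-181a-1-3p: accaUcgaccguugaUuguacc
miR-181a-2-3p: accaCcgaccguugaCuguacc
Of the partner strands 4 were listed, and miR-181a-1-3p and miR-181a-2-3p were listed in all tables. There were 25.6 to 386 reads of miR-181a-5p for each read of miR-181a-1-3p, in the libraries that had any. In KO males miR-181a-1-3p was at 90.4, 41.6 and 62.7 normalized reads after FA and at 39.0, 23.8 and 27.0 after O3, again without overlap. Its log2 fold change of -1.05 (SE 0.56, limma adjusted p = 0.764) was of the same size as that of miR-181a-5p. In co-ex males it was at 58.0, 55.2, 73.6 and 42.4 after FA and at 39.3, 26.5, 51.1 and 19.7 after O3, with 1 O3 library within the FA range (log2 fold change -0.79, SE 0.53, adjusted p = 0.944). Its values were uneven in females, from 0 to 17.2 normalized reads in the co-ex table and from 0 to 90.4 in the KO table. In KO females the log2 fold change had the other sign, 2.03 (SE 1.54, limma adjusted p = 0.490). In co-ex females it was -0.25 (SE 1.31, limma adjusted p = 0.969). The mean change of miR-181a-1-3p over the 4 tables was -0.02 (SE 0.55, limma adjusted p = 0.990). After O3, KO males had less of it than co-ex males, 25.3 against 95.6 RPM on average (log2 difference -1.89, SE 0.64, edgeR adjusted p = 0.0799, where 17% passed). This call was lost with no filter (adjusted p = 0.118) and in 5 of 7 fits that left out 1 library (adjusted p up to 0.242; co-ex males 1 or 3, or any of the KO males). miR-181a-2-3p, from the other hairpin, gave log2 fold changes of -0.22 (SE 0.81) in KO males, 0.34 (SE 1.17) in KO females and -0.78 (SE 1.40) in co-ex males. In co-ex females, with 0 to 12.4 normalized reads, it was too scarce to test. In KO females miR-181b-1-3p was at 6.21, 59.3 and 17.5 after FA and at 3.40, 0 and 4.63 after O3 (log2 fold change -2.78, SE 1.298, limma adjusted p = 0.225), and in KO males its log2 fold change was -0.06 (SE 0.97, limma adjusted p = 0.993). miR-181c-3p was listed in KO males alone, with 0 to 17 reads.

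Among 230 miRNAs tested in all 4 tables, the one whose values followed miR-181a-5p most closely was miR-181b-5p. The likeness was measured as Pearson's r of log2 values, centered on the mean of each group, over 28 libraries that share their depth and scaling across miRNAs, and it is given as a description. It was 0.75 for miR-181b-5p, followed by miR-652-3p (0.69), miR-425-5p (0.63), miR-146a-5p (0.51) and miR-3068-3p (0.51). For miR-181b-5p the closest after miR-181a-5p were miR-652-3p (0.67), miR-128-3p (0.65), miR-29b-1-5p (0.54) and miR-140-3p (0.53). Of these, miR-652-3p, miR-425-5p and miR-140-3p also passed as lower after O3 in the mean of the 4 tables, with log2 fold changes of -0.52 (limma adjusted p = 0.0470), -0.46 (limma adjusted p = 0.0807) and -0.45 (limma adjusted p = 0.0755). In that comparison 20% of all miRNAs passed and 5.22% passed as lower. The mean changes of miR-128-3p (-0.05), miR-29b-1-5p (0.01) and miR-3068-3p (-0.17) did not pass (limma adjusted p = 0.936, 0.994 and 0.895). miR-146a-5p, which restrains signaling by innate immune receptors, had a mean change of -0.43 (SE 0.38, limma adjusted p = 0.494).

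Marker miRNAs of other cell types were set beside these values. Of the epithelial miRNAs in KO males, 1 of 11 passed as higher after O3 and 0 as lower, where 0.909% of all miRNAs passed. Their median log2 fold change was 1.79 against -0.04 over all miRNAs. Their sum was 2409 to 29197 RPM after FA and 26277 to 35107 after O3. In co-ex females 0 of 11 passed (0.369% over all miRNAs), the median was 0.88, and the sums were 21846 to 49993 and 39623 to 59002. In co-ex males 0 of 10 passed (0% over all miRNAs), with a median of 0.40 and sums of 5892 to 37265 and 4616 to 51551. In KO females 9 of 11 epithelial miRNAs passed as higher, where 13.2% of all miRNAs passed. Their sums were 2244 to 5543 after FA and 28268 to 51593 after O3. The lymphocyte miRNAs had no member past the threshold, with 0 of 3 or 0 of 4 tested in each table. Their median log2 fold changes were -1.04 in KO males, -0.98 in co-ex females, -0.83 in KO females and -0.34 in co-ex males, and in KO males their sum was 6944 to 9497 RPM after FA and 4924 to 6489 after O3. The macrophage and myeloid miRNAs gave medians between -0.46 and 0.45 with 0 past the threshold. In co-ex females, where that median was -0.32, their sum had a median of 77327 RPM after FA and 155572 after O3. In KO males it was 223277, 166656 and 42578 RPM in FA replicates 1, 2 and 3 and 84080 to 156039 after O3. Of the red cell miRNAs 1 of 2 passed as lower in co-ex females, where 0.369% of all miRNAs passed, and 0 in the other tables. Their sum in co-ex females was 12712 to 137286 RPM after FA and 2833 to 4284 after O3. The 137286 was that of FA replicate 3. The FA and O3 sums overlapped in the other tables: 993 to 4461 and 1038 to 17453 in co-ex males, 6122 to 32280 and 4335 to 23839 in KO females, and 16129 to 67930 and 5365 to 111249 in KO males. The part of these markers in the values of the miR-181 family was not tested.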

How the data were processed

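Small RNA libraries of AM were prepared with the NEXTflex v3 kit and sequenced on an Illumina HiSeq. According to the methods of the study, the authors trimmed reads with the FASTX-Toolkit and counted miRNAs with Chimira. The deposited signal is the reads divided by a size factor, set for each table separately, and in all libraries 100% of the values were whole multiples of 1 step (tolerance 0.001 of a step), so reads were recovered. miRNAs listed had reads in at least 4 (co-ex) or 3 (KO) libraries. The authors' fold changes and p-values in the deposited tables were not used.

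O3 was compared with FA by limma 3.58.1 (trend) on the log2 of the value plus 1. A miRNA was tested if it reached 5 in a number of libraries no smaller than the smaller group. Differences and the mean of changes used the same fit. Levels between tables were compared by edgeR 4.0.16 (quasi-likelihood, TMM) on recovered reads. That test gives no standard error, so the SE of a level difference is its size divided by the root of the F statistic. Benjamini-Hochberg adjustment ran over all miRNAs tested, at 0.1. DESeq2 1.42.0, R 4.3.3, Python 3.11.15 and matplotlib 3.10.9 were also used. The fits were tested on simulated data with planted changes larger than those of miR-181a-5p after O3. The simulated libraries had the same dispersion for every miRNA and no outlying library. How often the fits detect smaller changes was not measured. Members, marker lists, partner strands and the 5 most alike miRNAs were set by rules chosen with earlier results of these data known. Whether libraries came from separate animals is not stated for each, so p-values measure the spread between libraries. Floors cover counting error only, while standard errors and SDs reflect the spread between libraries.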

Additional observations from a re-analysis of the deposited data

Results flagged for a closer look

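Each value here lay far from the rest of its group of 4 libraries, by a gap to its neighbour that took a larger share of the group's range than Dixon's critical value. Of 24 groups of 4 checked over the family and its partner strands, 5 held such a value, where chance gives about 1 in 20 for normally distributed values. The chance rate for low counts tied at 0 was not measured, and all 5 were in co-ex males at low counts. miR-181c-5p was at 7.70 normalized reads (9 reads) in O3 replicate 2 and at 0 in the other O3 libraries. miR-181d-5p was at 6.72 (18 reads) in FA replicate 2 against 0 in the others, and at 16.2 (19 reads) in O3 replicate 2 against 0 to 1.44. miR-181a-2-3p was at 123 (45 reads) in FA replicate 3 against 0 to 10.1, and at 0 in O3 replicate 4 against 10.1 to 10.97.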

How the results depend on the processing

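Total-count scaling, no filter on low values, a pseudocount of 0.1, edgeR or DESeq2 on the recovered reads, the replicate number as a block, and each library left out in turn were tried, with limma on log2 RPM for levels. With main counts first, calls past the threshold moved by over 1.5 times under DESeq2 from 4 to 15 in KO males, 0 to 1 and 0 to 2 for the sex differences in change in co-ex and KO, 21 to 35 for the genotype difference in change in females, 33 to 55 and 19 to 59 for co-ex sex levels after FA and O3, 0 to 13 and 0 to 5 for KO sex levels, 8 to 70 and 53 to 102 for male genotype levels, and 26 to 62 for female genotype levels after O3. edgeR gave 2 in KO males and 1 for the co-ex sex difference in change. Total-count scaling gave 32 for the female genotype difference in change and 15 for the male genotype level after FA, limma gave 23 for the latter and 35 for the co-ex sex level after O3, and no filter gave 10 there.

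Leaving out 1 library gave 0 to 1 calls in co-ex females, 0 in co-ex males, 25 to 52 in KO females, 0 (without O3 replicate 3) to 86 (without FA replicate 3) in KO males and 33 to 64 for the mean change. It gave 0 to 1 (co-ex sexes), 0 (KO sexes), 9 to 31 (females) and 0 (males) for differences in change. For levels it gave 11 to 68 and 0 to 71 (co-ex sexes, FA and O3), 0 and 0 to 1 (KO sexes), 58 to 106 and 3 to 45 (female genotypes), and 1 to 46 and 16 to 107 (male genotypes).

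Replicate numbers showed no clear pairing of the libraries, though a check on 3 or 4 libraries per group cannot settle this. Same-numbered FA and O3 libraries had correlations of deviations from -0.276 to 0.233, and of the 14 numbers at most 1 or 2 per table were best matched by their own. With the block, calls went from 4 to 1 in KO males, 21 to 14 for the female genotype difference in change, 8 to 0 for male genotype levels after FA and 19 to 63 for co-ex sex levels after O3, and the call of miR-181a-5p in KO against co-ex females after O3 was lost (adjusted p = 0.166), as was that of miR-181a-1-3p in KO against co-ex males after O3 (adjusted p = 0.165).

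Signs turned where changes were small, and the cause was not tested. Leaving out 1 library gave -0.073 to 0.28 for miR-181a-5p in co-ex males (below 0 without FA 4, -0.073, O3 1, -0.042, or O3 3, -0.063), -0.27 (without FA 4) to 0.38 for miR-181b-5p there, -0.24 to 0.099 (without FA 1) for miR-181b-5p in KO females, and in KO males -0.47 (without FA 1) to 1.05 for miR-181c-5p and -2.13 to 0.19 (without FA 3) for miR-181d-5p. For levels it gave -0.22 (without KO FA 3) to 1.28 for miR-181c-5p between male genotypes after FA, -0.072 to 0.25 for miR-181a-5p between KO sexes after O3 (above 0 without females 1, 0.25, or 3, 0.010, or male 3, 0.13), and -0.029 (without KO 2) to 0.86 for miR-181c-5p between female genotypes after O3. Total-count scaling gave -0.042 for miR-181a-5p in co-ex males, 0.064 and 0.12 for miR-181a-5p and miR-181b-5p in KO females, and -0.061 and -0.14 for their male genotype levels after FA, where limma gave -0.040 and -0.12. In co-ex males miR-181b-5p was -0.089 by edgeR and -0.035 by DESeq2, in KO males miR-181c-5p was -0.18 and -0.29, and with no filter the KO sex level of miR-181a-5p after O3 was 0.056.

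Total-count scaling raised the median change of all miRNAs from 0.06 to 0.25 in KO females and from -0.04 to 0.20 in KO males, where miR-181a-5p stayed below 0. At the lowest depth, 3 reads are 72.2 RPM, which limits miR-181c-5p and miR-181d-5p.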
